A study of Mus musculus with 9 samples.

Results

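The genes described here are 10 members of the mammalian circadian clock, measured in mouse brain: the activators Clock and Bmal1 (Arntl on older arrays), the repressors Per1, Per2, Per3, Cry1 and Cry2, the nuclear receptors Nr1d1 and Nr1d2, and the output transcription factor Dbp. All probe sets carrying one of these names as their only gene symbol were taken, 23 of the 45037 non-control probe sets of the Affymetrix Mouse430_2 array, which reads each transcript with small groups of short oligonucleotides. Per3 had 6 probe sets, Clock had 4, Per2 had 3, Bmal1, Dbp and Nr1d2 had 2 each, and Per1, Cry1, Cry2 and Nr1d1 had 1 each. The tissue was a brain hemisphere with the cerebellum removed, from untreated adult males 11 weeks old, give or take 1 week, of 3 strains: C57BL/6ByJ, BALB/cJ and B6By.C.132.54, whose name marks it as carrying DNA of a BALB/c donor on a C57BL/6By background. Left and right hemispheres were taken in alternation, RNA of 10 hemispheres was pooled for each array, and each strain had 3 arrays numbered 1 to 3, from 30 mice. The design text speaks of 3 batches with every strain in each, but no label says that the number of a replicate is a batch. The hour at which the mice were killed is not given in the sources used here.

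The clock is a feedback loop of transcription. CLOCK and BMAL1 bind E-boxes as a pair and switch on the Per and Cry genes, whose proteins return to the nucleus and repress that pair, while NR1D1 and NR1D2 (REV-ERB alpha and beta) repress Bmal1 through ROR elements and DBP acts through D-boxes. Dbp, Nr1d1 and Per transcripts swing strongly over the day in many tissues, Clock transcripts hardly do, and the master pacemaker lies in the suprachiasmatic nucleus, a small hypothalamic nucleus that makes up little of a hemisphere.

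The sequences around transcription start sites show where this loop has its familiar sites. RefSeq (GRCm38.p6) gave 13 windows for 9 of the 10 genes, each running from 250 bases before to 50 after a start. 5 motifs were searched on both strands: the E-box CACGTG, the E′-box CACGTT, which reads AACGTG on the other strand, the D-box TTATGTAA or TTACGTAA, the core of the ROR element TAGGTCA or TGGGTCA, and the cyclic AMP response element TGACGTCA, and none of them is contained in another. Of 32851 windows of this length in the table, 7.15% held the E-box, 4.685% the E′-box, 1.056% the D-box, 6.453% the ROR core and 1.79% the cyclic AMP element. Per2 had no window, and 6 of the 9 genes with windows had at least 1 match. Some genes had more than 1 window, and the share of all windows holding any of the 5 motifs was not counted. The windows of Nr1d1, Dbp and Nr1d2 are shown because the called differences below lie in these genes, and those of Per3 and Bmal1 because they hold the D-box and the ROR core. Capitals mark the matches, lower case the rest.
Nr1d1, chr11:98775328-98775627, minus strand: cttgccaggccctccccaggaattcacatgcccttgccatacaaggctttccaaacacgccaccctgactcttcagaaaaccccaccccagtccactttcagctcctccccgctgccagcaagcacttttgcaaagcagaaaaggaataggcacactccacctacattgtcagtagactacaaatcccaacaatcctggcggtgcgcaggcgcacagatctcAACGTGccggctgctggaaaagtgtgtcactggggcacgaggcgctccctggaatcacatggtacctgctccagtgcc
Dbp, chr7:45704997-45705296, plus strand: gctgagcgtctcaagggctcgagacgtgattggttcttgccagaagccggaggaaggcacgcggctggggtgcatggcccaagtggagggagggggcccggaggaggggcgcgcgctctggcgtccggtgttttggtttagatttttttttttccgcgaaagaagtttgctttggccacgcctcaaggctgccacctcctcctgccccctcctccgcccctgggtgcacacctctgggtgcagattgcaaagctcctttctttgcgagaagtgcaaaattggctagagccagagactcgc
Nr1d2, chr14:18239057-18239356, minus strand: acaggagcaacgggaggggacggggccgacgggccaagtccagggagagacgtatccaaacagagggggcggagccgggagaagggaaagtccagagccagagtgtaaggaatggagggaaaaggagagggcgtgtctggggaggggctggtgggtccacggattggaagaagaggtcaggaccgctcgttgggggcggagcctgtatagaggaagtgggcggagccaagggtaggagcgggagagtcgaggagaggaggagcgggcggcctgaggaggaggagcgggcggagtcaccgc
Per3, chr4:151044616-151044915, minus strand: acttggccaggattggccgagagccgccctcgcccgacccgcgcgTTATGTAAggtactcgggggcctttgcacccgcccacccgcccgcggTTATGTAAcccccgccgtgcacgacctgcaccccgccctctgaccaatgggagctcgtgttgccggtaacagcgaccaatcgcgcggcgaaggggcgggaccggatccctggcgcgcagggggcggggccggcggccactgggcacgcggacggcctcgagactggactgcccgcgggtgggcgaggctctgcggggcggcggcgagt
Bmal1, chr7:113207261-113207560, plus strand: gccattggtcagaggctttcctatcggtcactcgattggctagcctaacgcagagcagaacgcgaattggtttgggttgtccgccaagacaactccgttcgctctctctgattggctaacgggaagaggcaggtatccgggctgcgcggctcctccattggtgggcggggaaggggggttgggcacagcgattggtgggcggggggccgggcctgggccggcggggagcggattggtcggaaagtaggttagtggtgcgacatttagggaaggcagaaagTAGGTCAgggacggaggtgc
With the start base as 0, the E′-box of Nr1d1 lay at -28 to -23, and the D-boxes of Per3 at -205 to -198 and at -158 to -151. The ROR core of Bmal1 lay at 30 to 36, past the start, in the second of its windows. Outside the windows shown, Per1 had an E-box at -166 to -161, Cry1 an E-box at -60 to -55 beside an E′-box at -79 to -74, and Cry2 an E′-box at -166 to -161. The windows of Dbp, Nr1d2 and Clock held none of these letters.

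Intensities were compared on the log2 scale, and 19 of the 23 clock probe sets had a mean over the 9 arrays at or above the median of all probe sets, 3.97. The dimmer 4 were 1 probe set of Per2, 1 of Clock and 2 of Per3, and every gene kept at least 1 brighter probe set. Array medians lay between 15.49 and 16.01 in intensity units. The arrays numbered 1 stood apart in the control probe sets that read the same transcript near its ends: the 3′ minus 5′ log2 difference of Gapdh was -0.60 to -0.49 on them and -0.41 to -0.27 on the other 6, and that of Actb was 0.71 to 0.78 against 0.51 to 0.60. Values on the array of B6By.C.132.54 replicate 3 were the least spread, with an interquartile range over all probe sets of 2.73 log2 units.

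**Figure D1:**
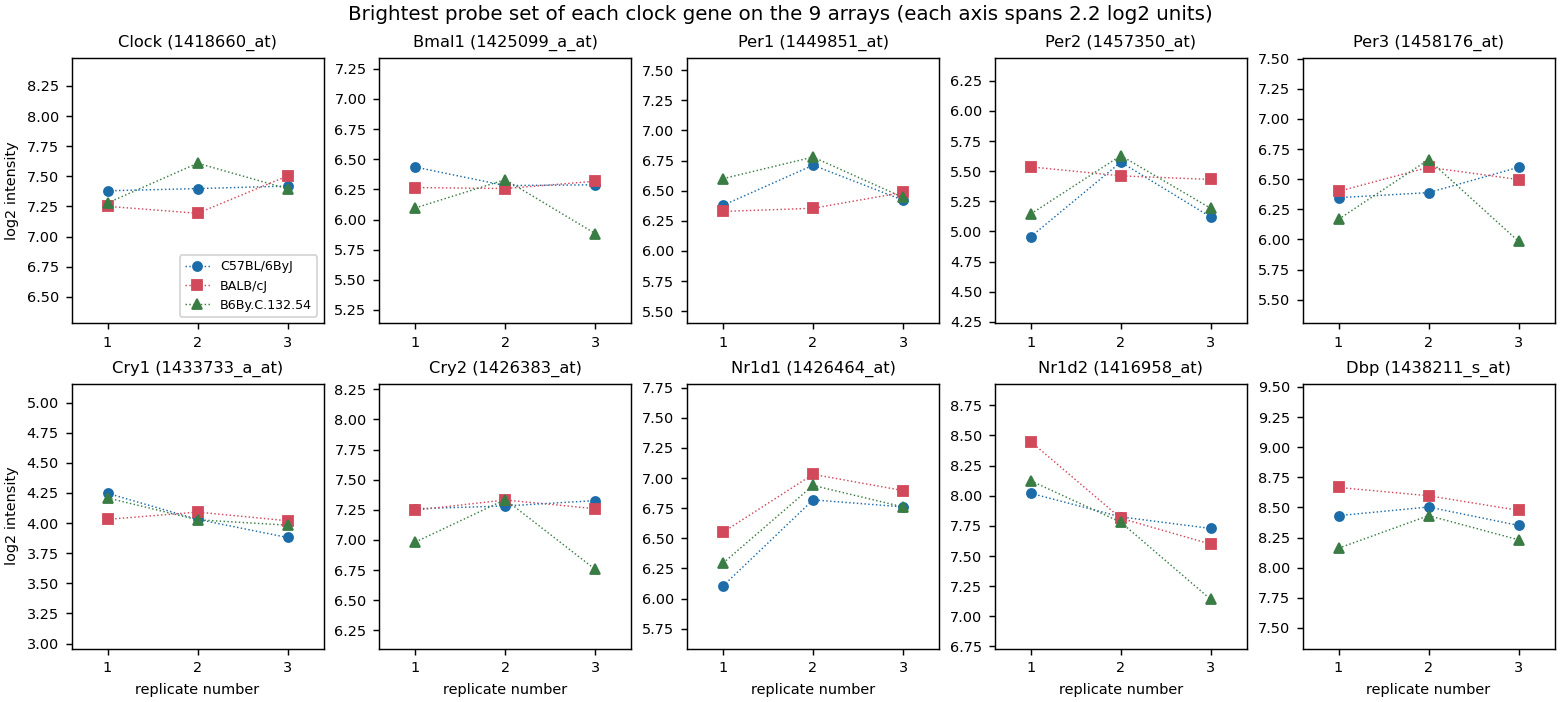
log2 intensity (vertical axis, 2.2 log2 units in every panel) of the brightest probe set of each of the 10 clock genes against replicate number (horizontal axis), with 1 point per array and colour and shape by strain. Dotted lines only join arrays of 1 strain. Nr1d1 is lowest on the array numbered 1 in each strain and Nr1d2 (1416958_at) is highest there.

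Between strains no clock probe set was called in the fits with strain as the only term. In limma fits over all probe sets with Benjamini-Hochberg adjustment, 0 of the 23 clock probe sets passed an adjusted p of 0.05 in BALB/cJ against C57BL/6ByJ, where 1.43% of all probe sets did, 0 in B6By.C.132.54 against BALB/cJ, where 1.28% did, and 0 in B6By.C.132.54 against C57BL/6ByJ, where 0% did. At an unadjusted p under 0.05 in the same limma fits the counts were 1, 2 and 0 of 23, beside 3416, 3378 and 1751 of all 45037 probe sets. The median clock difference was 0.028, -0.11 and -0.0036 log2 units in that order, beside 0.018, -0.024 and -0.013 over all probe sets. These comparisons share arrays, so each is read on its own. With at most 1.43% of all probe sets called, 0 of 23 does not set the clock genes apart. It does not show that they were level either, because some intervals were wide. For B6By.C.132.54 minus BALB/cJ the 95% interval was -0.82 to 0.28 for Nr1d2 (1416958_at) and -0.80 to -0.13 for Dbp (1418174_at). That of Cry1 was narrower, -0.21 to 0.26. In bulk tissue, fewer cells of a type and less RNA per cell cannot be told apart, here and below.

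The output gene Dbp, a PAR bZIP factor, had the differences nearest to a strain call. At probe set 1418174_at its log2 intensity was 7.34, 7.76 and 7.57 on the C57BL/6ByJ arrays 1 to 3, 7.75, 8.08 and 7.90 on those of BALB/cJ, and 7.17, 7.69 and 7.47 on those of B6By.C.132.54. All 3 BALB/cJ arrays were above all 3 of B6By.C.132.54, and they overlapped those of C57BL/6ByJ only narrowly. The strain means were 7.91 ± 0.16 in BALB/cJ, 7.56 ± 0.21 in C57BL/6ByJ and 7.44 ± 0.26 in B6By.C.132.54 (SD, n = 3). B6By.C.132.54 was 0.47 log2 units below BALB/cJ, a difference of -0.47 ± 0.15 (SE), which did not pass (limma adjusted p = 0.327). Arrays of 1 replicate number varied together in every strain, and with the replicate number as a block the same difference passed (limma adjusted p = 0.0122). Within numbers 1, 2 and 3 it was -0.58, -0.38 and -0.44. In the blocked fit 1 of the 23 clock probe sets was thus called, lower in B6By.C.132.54 than in BALB/cJ, where 1.85% of all probe sets were called. It missed the threshold when any array of BALB/cJ was left out (limma adjusted p of 0.113, 0.0549 and 0.0537 for replicates 1, 2 and 3), and likewise for B6By.C.132.54 replicate 1 (0.105). The difference of BALB/cJ from C57BL/6ByJ was 0.35 ± 0.15 (limma adjusted p = 0.597), and 0.41, 0.31 and 0.33 within the numbers. With the block its limma adjusted p was 0.0537, so that 0 clock probe sets were called where 2.12% of all were, and 4 other ways of processing brought it to between 0.0116 and 0.0377. For B6By.C.132.54 against C57BL/6ByJ the blocked fit called 0 clock probe sets and 0% of all.

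The second Dbp probe set, 1438211_s_at, was the brighter, and its suffix marks probes that can match more than 1 transcript. It read 8.43, 8.50 and 8.35 in C57BL/6ByJ, 8.67, 8.60 and 8.48 in BALB/cJ, and 8.16, 8.43 and 8.23 in B6By.C.132.54. The order of the strain means was the same, 8.58 ± 0.096 in BALB/cJ, 8.43 ± 0.077 in C57BL/6ByJ and 8.27 ± 0.14 in B6By.C.132.54 (SD, n = 3), and the arrays of BALB/cJ and B6By.C.132.54 again did not overlap. The difference between these strains was -0.30 ± 0.10 (SE), with a limma adjusted p of 0.318, or 0.166 once replicate number was a block.

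**Figure D2:**
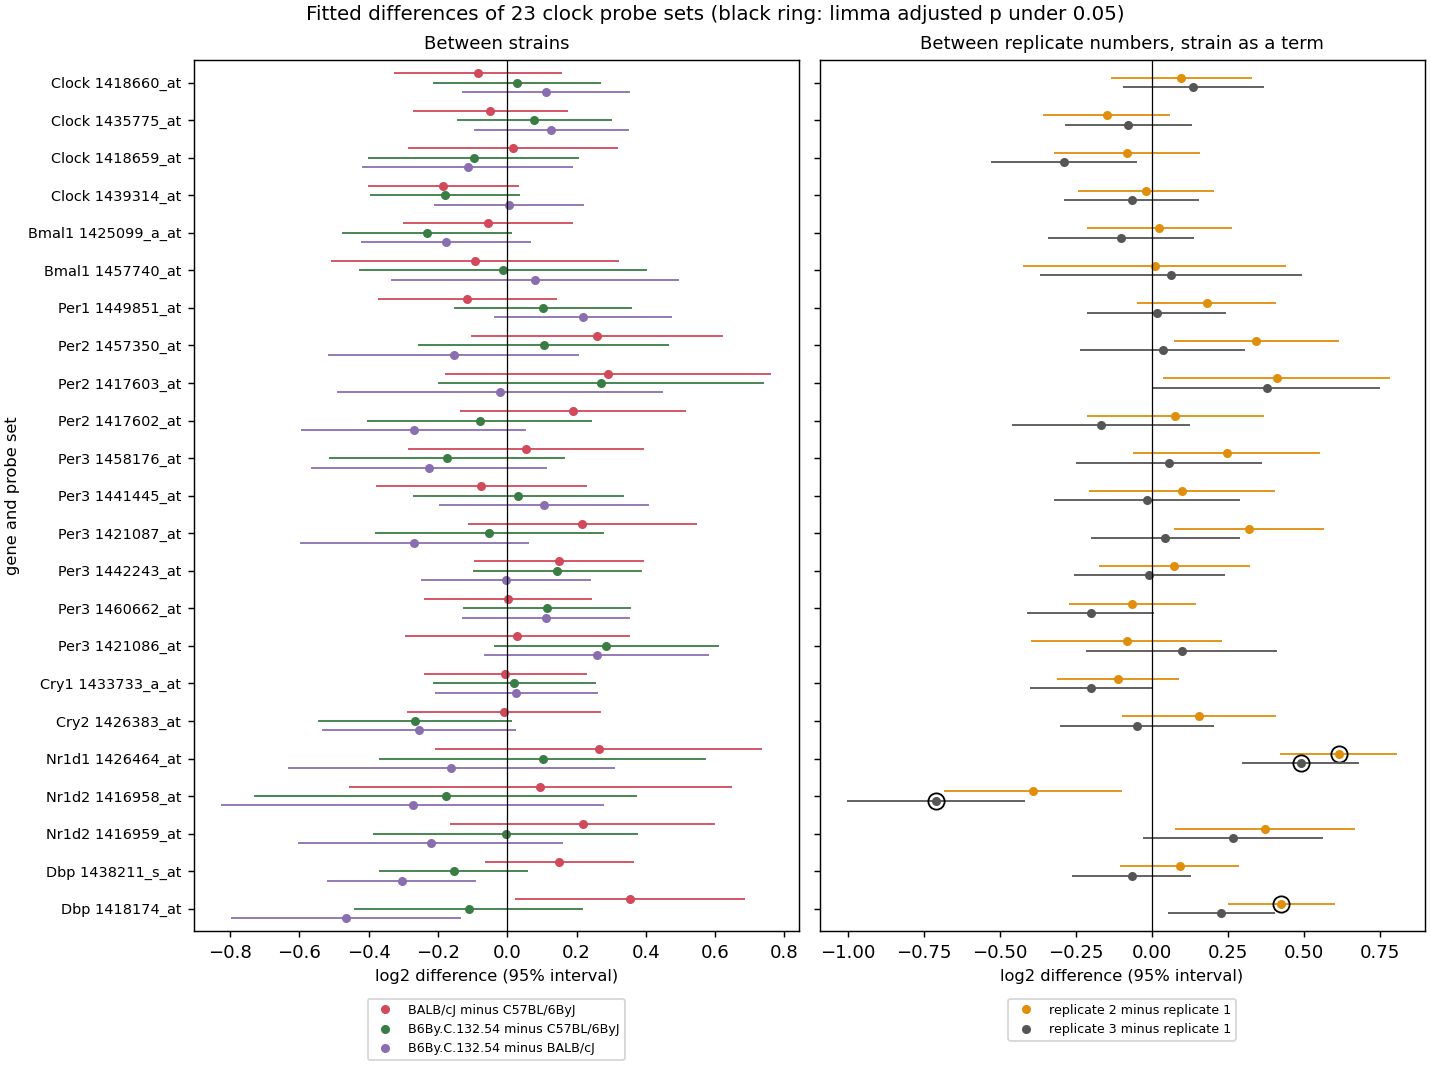
Fitted log2 differences (horizontal axes) of the 23 clock probe sets (vertical axis) with 95% intervals: left, 3 strain comparisons from the fit without the replicate block; right, replicates 2 and 3 against replicate 1 with strain as a term. Black rings mark limma adjusted p under 0.05 and appear only in the right panel, in both comparisons at Nr1d1 and in 1 comparison each at Dbp 1418174_at and Nr1d2 1416958_at.

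Among the activators, Clock at its brightest probe set had strain means of 7.40 ± 0.020 in C57BL/6ByJ, 7.32 ± 0.16 in BALB/cJ and 7.43 ± 0.17 in B6By.C.132.54 (SD, n = 3). The 95% interval for BALB/cJ minus C57BL/6ByJ ran from -0.33 to 0.16. Bmal1, its partner, read 6.44, 6.28 and 6.29 in C57BL/6ByJ, 6.27, 6.26 and 6.32 in BALB/cJ and 6.10, 6.33 and 5.88 in B6By.C.132.54. The lowest value stood on the array of B6By.C.132.54 replicate 3, and the difference of that strain from C57BL/6ByJ, -0.23 ± 0.11 (SE), did not pass (limma adjusted p = 0.915). The second Bmal1 probe set, 1457740_at, ranged from 4.17 to 5.02, and both ends of that range were C57BL/6ByJ arrays.

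Of the repressors, Per1, which light and neuronal activity also induce, had means of 6.50 ± 0.18 in C57BL/6ByJ, 6.39 ± 0.084 in BALB/cJ and 6.61 ± 0.17 in B6By.C.132.54 (SD, n = 3). Per2 (1457350_at) read 4.96, 5.58 and 5.12 in C57BL/6ByJ, 5.54, 5.46 and 5.43 in BALB/cJ and 5.15, 5.63 and 5.19 in B6By.C.132.54. Its arrays numbered 2 were the highest in 2 strains and intermediate in BALB/cJ, whose 3 values lay close together. Per3 (1458176_at) had means of 6.44 ± 0.14, 6.50 ± 0.10 and 6.27 ± 0.35 in C57BL/6ByJ, BALB/cJ and B6By.C.132.54 (SD, n = 3). Cry1, at 4.05 ± 0.18, 4.05 ± 0.039 and 4.07 ± 0.12 in the same order (SD, n = 3), was the flattest across strains, and the interval for BALB/cJ minus C57BL/6ByJ ran from -0.24 to 0.23. Its mean over all arrays, 4.06, was the lowest among the brightest probe sets of the clock genes and close to the median of all probe sets, 3.97. Cry2 read 7.26, 7.28 and 7.33 in C57BL/6ByJ, 7.25, 7.33 and 7.26 in BALB/cJ, and 6.98, 7.34 and 6.76 in B6By.C.132.54. Its 2 low values were the B6By.C.132.54 arrays 1 and 3, and the difference from C57BL/6ByJ was -0.27 ± 0.13 (SE; limma adjusted p = 0.915).

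Nr1d1 and Nr1d2 varied more within strains than between them. Nr1d1 had means of 6.56 ± 0.40 in C57BL/6ByJ, 6.83 ± 0.25 in BALB/cJ and 6.66 ± 0.33 in B6By.C.132.54, and Nr1d2 (1416958_at) 7.86 ± 0.15, 7.95 ± 0.44 and 7.68 ± 0.50 in the same order (SD, n = 3). The largest strain difference of Nr1d1 was 0.26 ± 0.21 (SE), for BALB/cJ against C57BL/6ByJ (limma adjusted p = 0.916).

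Over replicate numbers, with strain as a term, calls fell on the single probe set of Nr1d1 and on 1 of the 2 probe sets each of Dbp and Nr1d2. Replicate 2 arrays were above replicate 1 arrays for Nr1d1 and 1 Dbp probe set, so 2 of 23 clock probe sets (8.70%) were called, both higher, where 2.19% of all probe sets were. Replicate 3 against replicate 1 also gave 2 calls (8.70%), Nr1d1 higher and 1 Nr1d2 probe set lower, where 3.49% of all probe sets were called. Both comparisons share the replicate 1 arrays. Replicate 3 against replicate 2 gave 0 clock calls and 0% of all probe sets by limma. At an unadjusted p under 0.05 the 3 limma counts were 7, 6 and 4 of 23, beside 6841, 8153 and 4701 of all 45037 probe sets. Median clock differences were 0.091, -0.0091 and -0.13 log2 units, beside 0.022, 0.028 and -0.012 over all probe sets.

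**Figure D3:**
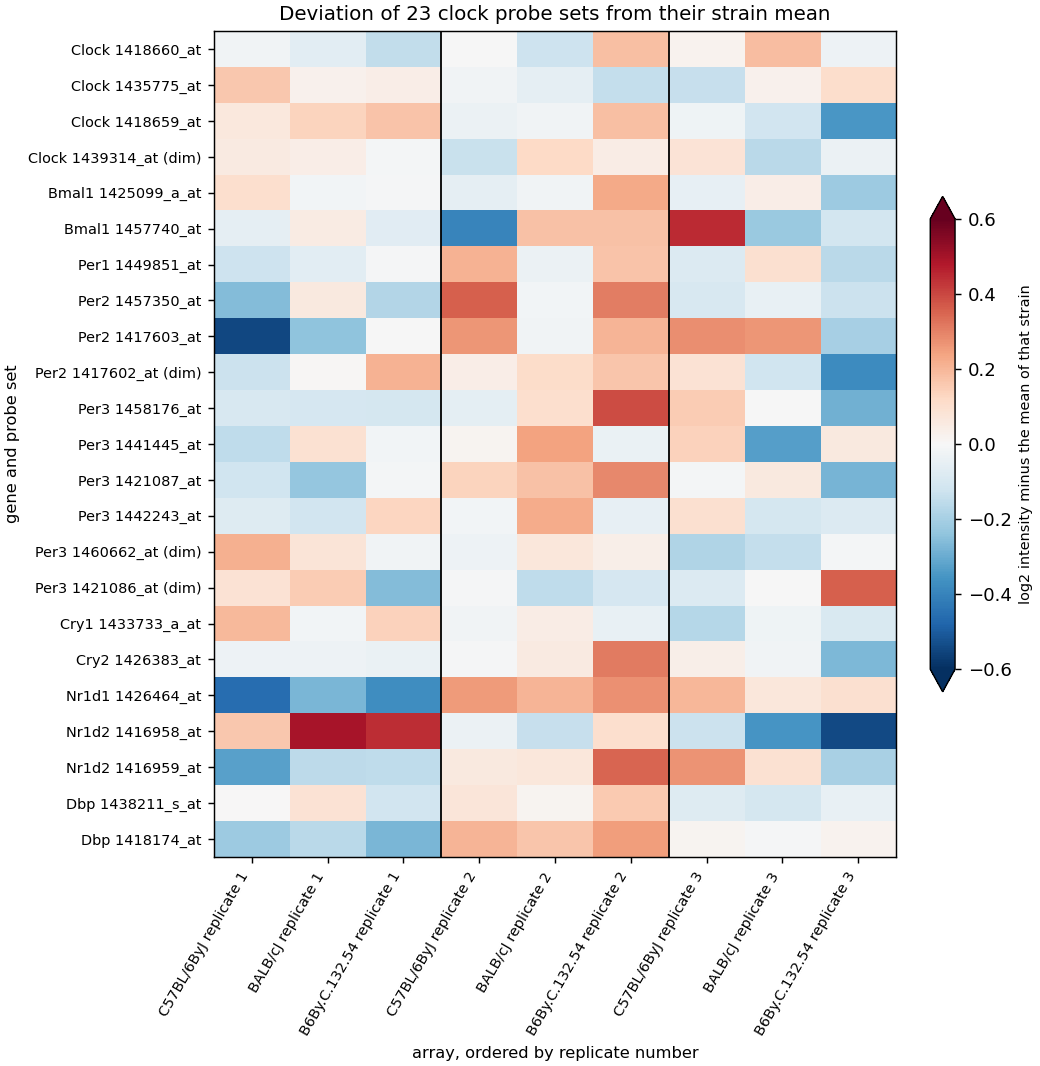
Deviation of each of the 23 clock probe sets (rows, named by gene) from the mean of its strain (colour, log2 units, blue below and red above, colours ending at 0.6), on the 9 arrays (columns) ordered by replicate number, with black lines between numbers. Nr1d1 and Dbp 1418174_at are blue in all 3 arrays numbered 1 and red in all 3 numbered 2, Nr1d2 1416958_at is red in all 3 numbered 1, and "dim" marks the 4 probe sets below the median of all.

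Nr1d1, the heme-binding repressor of Bmal1, read 6.11, 6.82 and 6.76 on the C57BL/6ByJ arrays 1 to 3, 6.55, 7.03 and 6.90 on those of BALB/cJ, and 6.29, 6.94 and 6.76 on those of B6By.C.132.54. The array numbered 1 was the lowest and the array numbered 2 the highest in each strain, and no replicate 1 array reached any of the other 6. Replicate 2 was above replicate 1 by 0.61 ± 0.09 log2 units (SE), 1.53-fold (limma adjusted p = 0.0071), and by 0.71, 0.48 and 0.64 within C57BL/6ByJ, BALB/cJ and B6By.C.132.54. Replicate 3 was above replicate 1 by 0.49 ± 0.09, 1.40-fold (limma adjusted p = 0.0123), and by 0.66, 0.35 and 0.47 within the strains. The first call was lost without C57BL/6ByJ replicate 1 (limma adjusted p = 0.0676) or B6By.C.132.54 replicate 1 (0.0681), and the second without C57BL/6ByJ replicate 1 (0.0942), C57BL/6ByJ replicate 3 (0.0641) or B6By.C.132.54 replicate 1 (0.0898), with the difference staying above 0.42 in each of these fits.

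Dbp at 1418174_at followed the same order, with the array numbered 2 the highest and the array numbered 1 the lowest in each strain. Replicate 2 was above replicate 1 by 0.42 ± 0.08 log2 units (SE), 1.34-fold (limma adjusted p = 0.0264), and by 0.43, 0.33 and 0.52 within C57BL/6ByJ, BALB/cJ and B6By.C.132.54. Replicate 3 was above replicate 1 by 0.23 ± 0.08, which did not pass (limma adjusted p = 0.164), though it did on log2 of intensity plus 16 (0.0402). The call for replicate 2 was lost after quantile normalization (limma adjusted p = 0.0579) and without C57BL/6ByJ replicates 1 and 2 in turn (0.151 and 0.106), BALB/cJ replicates 1 and 2 in turn (0.0823 and 0.0975), and B6By.C.132.54 replicates 1 and 2 in turn (0.184 and 0.116). The other Dbp probe set, 1438211_s_at, did not share it: replicate 2 minus replicate 1 was 0.09 ± 0.09 (SE; limma adjusted p = 0.705), and -0.069 within BALB/cJ.

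The 2 probe sets of Nr1d2, the paralogue of Nr1d1, ran in opposite directions. At 1416958_at the values were 8.02, 7.82 and 7.73 in C57BL/6ByJ, 8.45, 7.81 and 7.60 in BALB/cJ, and 8.12, 7.78 and 7.14 in B6By.C.132.54. The array numbered 1 was the highest in each strain, and the lowest array of all was B6By.C.132.54 replicate 3. Replicate 3 minus replicate 1 was -0.71 ± 0.13 log2 units (SE; limma adjusted p = 0.0161), and -0.29, -0.85 and -0.98 within C57BL/6ByJ, BALB/cJ and B6By.C.132.54. This call did not survive leaving out replicate 1 or 3 of BALB/cJ (limma adjusted p of 0.112 and 0.0667), nor replicate 1 or 3 of B6By.C.132.54 (0.126 and 0.0521). At 1416959_at the values were 6.00, 6.39 and 6.60 in C57BL/6ByJ, 6.39, 6.62 and 6.64 in BALB/cJ, and 6.17, 6.68 and 6.13 in B6By.C.132.54. Here the array numbered 1 was the lowest in C57BL/6ByJ and BALB/cJ, and replicate 3 minus replicate 1 was 0.27 ± 0.13 (SE; limma adjusted p = 0.323). A direction for the Nr1d2 transcript as a whole over replicate numbers was therefore not given by these probe sets.

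**Figure D4:**
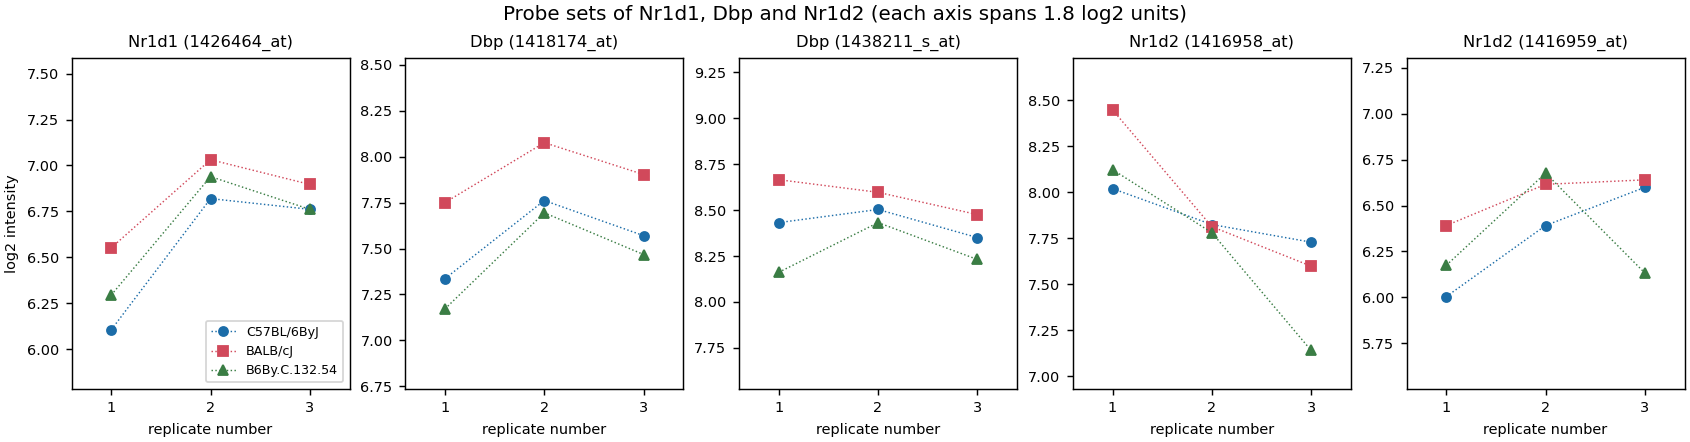
log2 intensity (vertical axis, 1.8 log2 units in every panel) against replicate number (horizontal axis) for the single Nr1d1 probe set and both probe sets of Dbp and of Nr1d2, 1 point per array, colour and shape by strain, dotted lines only joining arrays of 1 strain. Nr1d1 and Dbp 1418174_at share the order of the numbers in every strain, Dbp 1438211_s_at does not, and the panels of Nr1d2 slope in opposite directions from replicate 1 to replicate 2.

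The remaining clock genes showed no called difference over replicate numbers. The lowest adjusted p among them was that of Per3 at 1421087_at, with 0.32 ± 0.11 (SE; limma adjusted p = 0.191) for replicate 2 minus replicate 1. Clock at 1418659_at followed, with -0.29 ± 0.11 for replicate 3 minus replicate 1 (limma adjusted p = 0.194), while its brightest probe set, 1418660_at, had 0.10 ± 0.10 for replicate 2 and 0.14 ± 0.10 for replicate 3 against replicate 1 (0.745 and 0.53). Per2 had 0.34 ± 0.12 at 1457350_at (limma adjusted p = 0.205) and 0.41 ± 0.17 at 1417603_at (0.277) for replicate 2 minus replicate 1. At 1457350_at the differences within C57BL/6ByJ, BALB/cJ and B6By.C.132.54 were 0.62, -0.074 and 0.48. Per1 had 0.18 ± 0.10 for the same comparison (limma adjusted p = 0.466). Bmal1 at 1425099_a_at, the gene that NR1D1 represses, had 0.02 ± 0.11 for replicate 2 and -0.10 ± 0.11 for replicate 3 against replicate 1 (limma adjusted p = 0.955 and 0.658), with 95% intervals of -0.21 to 0.26 and -0.34 to 0.14. By direction alone, 8 of the 23 probe sets were higher in replicate 2 than in replicate 1 in all 3 strains and 2 were lower in all 3, beside 23.5% and 14.5% of all probe sets. For replicate 3 against replicate 1 the counts were 3 and 3, beside 21.6% and 15.51%. For replicate 3 against replicate 2 they were 0 and 8, beside 11.1% and 15.9%.

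How the clock genes varied together was read from deviations from strain means over the 9 arrays, with the brightest probe set of each gene. Of 9 relations of Dbp (1438211_s_at) with the other members, 0 passed Benjamini-Hochberg adjustment. The strongest was Per2, with Pearson r = 0.745 (exact permutation p = 0.021, adjusted 0.189) and Spearman rho = 0.717 (exact permutation p = 0.0369, adjusted 0.332), and r fell to 0.565 without the 2 arrays farthest from the median of Dbp. With the other Dbp probe set, 1418174_at, chosen after the values were seen, Nr1d1 had r = 0.942 (exact permutation p = 0.000121, adjusted 0.00109) and rho = 0.967 (exact permutation p = 0.000165, adjusted 0.00149), and r was 0.929 without the 2 farthest arrays. Both probe sets had already been called for the same rise from replicate 1 to replicate 2, so this r adds no support of its own. The permutation let all 9 arrays change places freely, although arrays of 1 number deviated together. Its p-values therefore do not measure a relation between independent arrays, and each relation was also computed with the number means subtracted. Nr1d1 and Dbp 1418174_at then had r = 0.551 (exact permutation p = 0.463 over the 216 orders of arrays within numbers, adjusted 0.812), and 0 of the 9 relations passed with either Dbp probe set. The relation was thus not shown within numbers. Nr1d2 (1416958_at) had r = -0.49 with that Dbp probe set (exact permutation p = 0.181, adjusted 0.266).

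**Figure D5:**
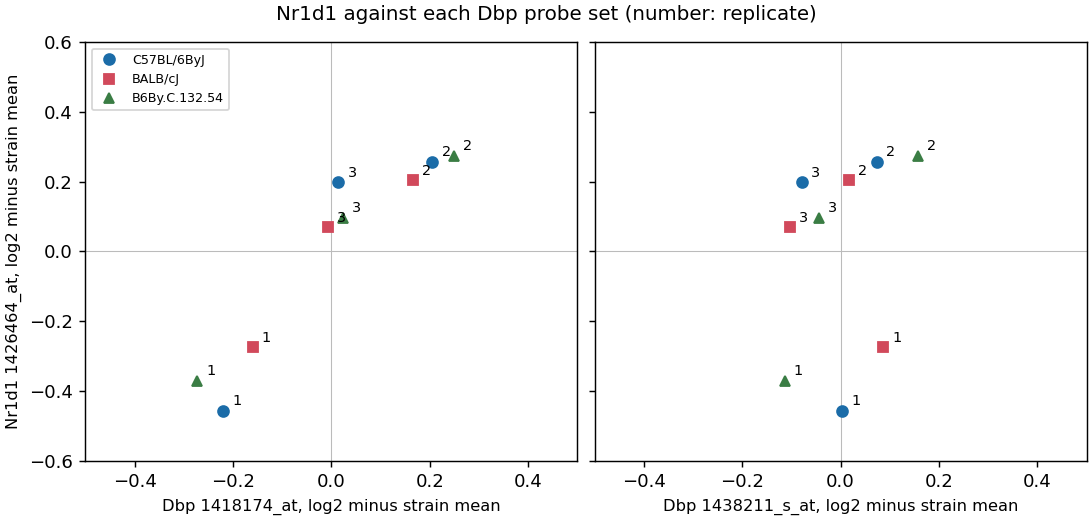
Deviation of Nr1d1 from its strain mean (vertical axis, log2 units) against that of Dbp (horizontal axis, log2 units) at 1418174_at (left) and at 1438211_s_at (right), 1 point per array, colour and shape by strain, digit giving the replicate number. On the left the 9 points follow a line (r = 0.942) and group by number, while on the right the replicate 1 arrays spread sideways (r = 0.260).

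The genes whose deviations were most like those of 2 reference members were named, over 9 arrays and 11468 genes, as a description. For Dbp (1438211_s_at) the highest r were those of Zfp949 (0.950), Ifitm3 (0.949), Cyb561 (0.926), Katna1 (0.924) and Slc44a2 (0.923), and the lowest those of Slc34a2 (-0.964), 4930423M02Rik (-0.962), Ccdc14 (-0.956), Rfesd (-0.941) and Pax9 (-0.941). For Bmal1 (1425099_a_at) the highest were Ccna2 (0.997), Dcun1d1 (0.986), Selenos (0.983), Sypl (0.979) and Eif3m (0.979), and the lowest Elobl (-0.974), Tmem106a (-0.972), Ntn5 (-0.972), Gm12108 (-0.969) and Scfd2 (-0.966). None of these is a clock member. Within the clock, Cry2 stood nearest to Bmal1, at r = 0.861 and place 222 from the top, and Per2 nearest to Dbp, at place 170. Both Bmal1 and Cry2 were lowest on the array of B6By.C.132.54 replicate 3. On B6By.C.132.54 replicates 2 and 3 Bmal1 deviated by 0.23 and -0.22, and Cry2 by 0.31 and -0.27. On the other arrays the deviation reached at most 0.10 for Bmal1 and 0.053 for Cry2, in either direction. The r of Bmal1 with Cry2 thus rests mainly on these arrays of a single strain, and it was not computed without them.

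Of 39 further clock-related genes, 35 were measured, by 93 probe sets. They comprised other core and repressor genes (10 genes), PAR bZIP and D-box factors (3), kinases and ubiquitin ligases of PER and CRY (8), clock outputs (7), suprachiasmatic peptides and receptors (6) and a temperature-linked RNA-binding gene (1). Between strains 2 of the 93 probe sets were lower in BALB/cJ than in C57BL/6ByJ, where 1.43% of all probe sets were called, and the same 2 were higher in B6By.C.132.54 than in BALB/cJ, where 1.28% were, so these counts lie near the background. Between B6By.C.132.54 and C57BL/6ByJ 0 differed by limma. These 2 belonged to Rorb, a nuclear receptor that acts on ROR elements, and Csnk1a1, a casein kinase. Rorb 1439862_at read 5.22, 5.20 and 5.15 in C57BL/6ByJ, 4.30, 4.44 and 4.52 in BALB/cJ and 5.14, 5.03 and 5.03 in B6By.C.132.54. BALB/cJ lay below both other strains with no overlap, by -0.77 ± 0.09 against C57BL/6ByJ (SE; limma adjusted p = 0.000677). The other 2 Rorb probe sets differed there by 0.08 ± 0.18 and 0.18 ± 0.11 (limma adjusted p = 0.984 and 0.83). Csnk1a1 1437923_at read 6.56, 6.64 and 6.73 in C57BL/6ByJ, 5.29, 5.39 and 5.41 in BALB/cJ and 6.33, 6.73 and 6.33 in B6By.C.132.54. BALB/cJ was again alone below, by -1.28 ± 0.11 against C57BL/6ByJ (SE; limma adjusted p = 0.00013), while the brightest Csnk1a1 probe set, 1428537_at, differed by -0.18 ± 0.11 (0.831). Csnk1a1 1430529_at went the other way, by 0.48 ± 0.19 (limma adjusted p = 0.505), and by -0.68 ± 0.19 for B6By.C.132.54 against BALB/cJ (0.189). In both genes a single probe set was called, so no direction is given for the gene as a whole.

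Over replicate numbers 0 of the 93 probe sets were higher and 1 lower in replicate 2 than in replicate 1, where 2.19% of all probe sets were called and 625 of those 985 were lower. In replicate 3 against replicate 1, 0 were higher and 5 lower, where 3.49% of all were called and 1288 of those 1571 were lower. These counts and their direction lie near the background. Ppargc1a, a coactivator of metabolic genes, fell by 0.55 (limma adjusted p = 0.0232) and by 0.59 (0.00876) at 1434099_at, and by 0.52 in replicate 3 (0.0435) at 1434100_x_at. Its 3 other probe sets, which include the brightest, lay between -0.04 and 0.02 for replicate 3 (limma adjusted p = 0.841 or higher). The deacetylase Sirt1, with 1 probe set, fell by 0.51 (limma adjusted p = 0.0147) in replicate 3. The ubiquitin ligase subunit Fbxw11 was lower there at its brightest probe set, 1437468_x_at, with -0.49 (limma adjusted p = 0.0133), but its 4 other probe sets lay between -0.08 and 0.19 and were not called. Csnk1a1 was lower at 1424827_a_at, with -0.44 (limma adjusted p = 0.0315), while its brightest probe set had -0.19 (0.282) and 1437923_at 0.10 (0.655). Replicate 3 against replicate 2 gave 0 calls by limma here. The count of 5 dropped to 0 without BALB/cJ replicate 1, 1 without B6By.C.132.54 replicate 1, 2 without C57BL/6ByJ replicate 1 and 3 without BALB/cJ replicate 3. The count of 1 went to 0 without replicate 1 of any strain, BALB/cJ replicate 2 or B6By.C.132.54 replicate 2, and to 5 without B6By.C.132.54 replicate 3.

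Marker lists of cell types gave the makeup of the tissue beside these results. All measured markers of neurons (5), astrocytes (5), oligodendrocytes (4), microglia (5), endothelium (4) and choroid plexus (4) lay at or above the median of all probe sets, against 1 of 5 for cerebellum, 1 of 3 for pineal, 1 of 4 for pituitary, 1 of 3 for blood and 2 of 5 for the suprachiasmatic nucleus. The lists were not tested as such. The summed intensity of the astrocyte list was 1840 to 1978 on the arrays numbered 1, 1694 to 1861 on those numbered 2 and 1311 to 1713 on those numbered 3. These sums turned on the gap junction gene Gja1: without it they were 1087 to 1139, 1258 to 1382 and 1053 to 1374. Gja1 was lower at its brightest probe set, at -0.82 in replicate 2 and -1.25 in replicate 3 against replicate 1 (limma adjusted p = 0.0103 and 0.000473). At their own brightest probe sets the other 4 of the 5 astrocyte genes were above 0 in both and not called, and the list's median was 0.28 and 0.12. A dimmer Aqp4 probe set, 1434449_at, was called lower in replicate 3 against replicate 1, at -0.92 (limma adjusted p = 0.00403). The choroid plexus sum was 4572 to 4857, 3792 to 4216 and 3707 to 4089, of which Ttr made up 96.9%, and without Ttr it was 125 to 128, 112 to 154 and 112 to 135. A dimmer Ttr probe set, 1455913_x_at, was called lower in replicates 2 and 3 against replicate 1, at -0.57 and -0.66 (limma adjusted p = 0.00726 and 0.00156). Ttr 1459737_s_at was called lower in replicate 3, at -0.37 (limma adjusted p = 0.0328), and 0 of the 8 choroid plexus probe sets were called higher. The neuron sum was 7490 to 8271, 7140 to 7620 and 6299 to 7242, with a median gene difference of -0.01 for replicate 2 and -0.12 for replicate 3 against replicate 1, and 1 of its 5 genes, Snap25, was called, at -0.53 in replicate 3 (limma adjusted p = 0.00698). The oligodendrocyte sum was 8092 to 8581, 9038 to 9230 and 7639 to 9061. Mbp made up 59.0% of it, and without Mbp it was 3350 to 3666, 3708 to 3782 and 2900 to 3707. A dimmer Mbp probe set, 1433532_a_at, was called lower in replicates 2 and 3 against replicate 1, at -0.65 and -0.77 (limma adjusted p = 0.0264 and 0.00617). Mobp 1421010_at was called lower in replicate 3, at -0.58 (limma adjusted p = 0.0116), and 0 of the 17 oligodendrocyte probe sets were called higher. The microglia sum was 874 to 925, 953 to 1044 and 894 to 1007, and the endothelium sum 349 to 437, 413 to 466 and 397 to 477. For replicate 2 against replicate 1 all 5 microglia and all 4 endothelium genes were above 0, with medians of 0.14 and 0.15, and 0 of them were called by limma. The part of these markers in the clock differences over replicate numbers, and that of the 3′ to 5′ differences of the control transcripts, was not tested. Between strains 1 of the 5 astrocyte genes was called: Gfap, a filament gene, was higher in BALB/cJ than in C57BL/6ByJ by 0.92 ± 0.13 (SE; limma adjusted p = 0.00393), while the list's median was -0.05 and the other 4 genes lay between -0.10 and 0.14. For B6By.C.132.54 minus BALB/cJ Gfap was called at -0.71 ± 0.13 (SE; limma adjusted p = 0.0238). Its dimmer probe sets had -0.81 and -0.73 there (limma adjusted p = 0.0122 and 0.0417). In that comparison 4 of the 5 astrocyte genes were below 0 and 1 above, with a median of -0.29. Of the 4 endothelium genes 1 was called, Cldn5, at -0.54 ± 0.11 for BALB/cJ minus C57BL/6ByJ (limma adjusted p = 0.0466), where the list's median was -0.11. Their part in the Dbp difference was not tested.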

How the data were processed

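The deposited table gives 1 intensity per probe set and array, as the authors made it; GCOS and RMA are the tools listed, per the submitters' processing notes, with no role or version. The same value recurs on several arrays, as that table has it. Intensities were taken as log2. Of 45101 probe sets, 64 controls were left out, and the array annotation gave 34945 of the other 45037 one gene symbol, 932 several and 9160 none; 34741 names matched RefSeq (GRCm38.p6). limma 3.58.1 in R 4.3.3 (lmFit, eBayes, two-sided, Benjamini-Hochberg over 45037 probe sets, threshold 0.05) was fitted to all 9 arrays, with strain for strain comparisons and with strain and replicate number for the numbers, and the fits were tested on simulated data. Replicates are pools of separate mice per the labels, 3 per strain, a number that limits the precision.

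Arrays of 1 number deviated together from their strain means (correlation 0.519 to 0.542 for number 1, 0.147 to 0.180 for number 2 and 0.205 to 0.266 for number 3, across probe sets), so the numbers were taken to pair the arrays and blocked values are given where they change a call. Deviations from a strain mean cancel within the strain, so the correlations for numbers 2 and 3 depend on number 1. They do not show on their own that the arrays of those numbers pair. Named are all probe sets of the members, further clock-related genes called in any comparison, and the 5 genes of highest and lowest correlation with Dbp and with Bmal1. The brightest probe set stands for a gene. Members, lists and tests were chosen with earlier results of these data known. Alternatives were the block, a filter on dim probe sets, log2 of intensity plus 16, quantile normalization, an intensity trend with a robust prior, only the 2 strains compared, each array and each strain left out, the median over probe sets, and correlations without subtracting strain means. The block with these settings, the other Dbp probe set, correlations within numbers and likeness without B6By.C.132.54 replicate 3 were added after the data were seen.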

Additional observations from a re-analysis of the deposited data

How the results depend on the processing

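With 3 pools per strain only large or very even differences could pass. Strain counts of called clock probe sets stayed at 0 under every setting run, except 1 with the replicate block for B6By.C.132.54 against BALB/cJ; the block changed no other call of a clock probe set. With that block, Dbp 1418174_at was also called for BALB/cJ against C57BL/6ByJ without dim probe sets (limma adjusted p = 0.0344), on log2 of intensity plus 16 (0.0116), after quantile normalization (0.0377), with an intensity trend (0.0214) and without B6By.C.132.54 replicate 3 (0.0383). For replicate 2 against replicate 1 the count of 2 became 1 after quantile normalization, 0 to 2 with each array left out, and 0, 0 and 0 without the C57BL/6ByJ, BALB/cJ or B6By.C.132.54 arrays. For replicate 3 against replicate 1 it became 3 on log2 of intensity plus 16, where Dbp 1418174_at was also called (limma adjusted p = 0.0402). It became 0 to 2 with each array left out, and 1, 0 and 0 without those strains. By gene, the median over probe sets gave 1 called gene in place of 2 there. With the other Dbp probe set 1 relation of Dbp passed in place of 0, and 0 with number means also subtracted. Dbp 1438211_s_at, replicate 3 minus replicate 1, ranged from -0.15 to 0.0035 with each array left out and turned positive without BALB/cJ replicate 1. Of 138 clock differences, 64 changed sign under at least 1 setting, none of them among the 4 called. Over all probe sets the calls ranged from 92 to 1718 (985 reported) for replicate 2 against 1, from 519 to 1969 (1571) for replicate 3 against 1, from 410 to 953 (644) for BALB/cJ against C57BL/6ByJ and from 391 to 834 (575) for B6By.C.132.54 against BALB/cJ. The cause of these shifts was not tested.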
